A study of Drosophila melanogaster with 2 samples.

Results

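The distal reproducible peaks are Bigmax-GFP peaks kept by the authors at their threshold of irreproducible discovery rate (IDR), a measure of how well peak ranks match between replicates, and whose summit lay more than 2000 bp from the start of every annotated protein-coding transcript. They numbered 319 and made up 16.4% of the reproducible list (95% Wilson interval 14.8 to 18.1%). The list held 1630 others, of which 1289 had a summit within 500 bp of a start and 341, here called mid-range peaks, had one beyond 500 bp but within 2000 bp. Within the reproducible list distance alone chose the members, so the distance itself is not a finding, while annotation and sequence were not used in the choice. The list itself was chosen by the authors on signal ranks in the replicates, so distal peaks are compared in signal and replicate support only with the other reproducible peaks. The material was whole Drosophila melanogaster embryos of both sexes, 0 to 24 h old, from a transgenic line that stably expresses Bigmax with green fluorescent protein (GFP) at its C terminus. Chromatin was sonicated to 200 to 800 bp and analysed by immunoprecipitation and sequencing. The series has 2 libraries, biological replicates 3 and 4 of 1 group, so it holds no comparison of genotypes, ages or treatments. The title and antibody label give each library as a Bigmax immunoprecipitation, while the free text of each calls it an input control.

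Both libraries share the same line, tag and age range, and the promoter that drives the transgene is not given in the sources used here. Whole embryos mix all cell types and stages, so a peak in a few cells and a weak peak in all cells cannot be told apart. Each replicate list and the pooled list held 30000 relaxed peaks, and the 27650 pooled peaks without a base in common with a reproducible peak are called weak peaks. Of these, 12318 (44.5%) met the same distance rule and served as background under the name distal weak peaks. No read counts are given, so depth is unknown, and the intervals cover only the counting of peaks.

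Bigmax is the fly Mlx, a leucine zipper factor of the helix-loop-helix class that works as a dimer with the sugar sensor Mondo and is known to bind the CACGTG E-box. Regulatory sequence far from gene starts, in introns and between genes, is where many enhancers of fly developmental genes lie, and such genes often have long first introns. Peaks there can mark enhancers, insulators, starts of noncoding transcripts or starts that the annotation lacks, and a peak list by itself does not tell these apart.

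The reference sequences at the summits of the strongest distal peaks are shown first because the results on sequence turn on them. Each is the 101 bases centred on the summit, read 5′ to 3′ on the plus strand of dm6. Capitals mark the 6-mer AGGTTA or its reverse complement TAACCT, which lay within 50 bp of 76 of the 319 distal summits. The 6 strongest peaks that could be shown are named by the gene that holds the summit or, between genes, by the gene with the nearest start.
tara chr3R:16236554-16236654: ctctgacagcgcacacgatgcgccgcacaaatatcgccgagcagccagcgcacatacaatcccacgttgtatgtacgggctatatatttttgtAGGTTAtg
nrv2 chr2L:6792218-6792318: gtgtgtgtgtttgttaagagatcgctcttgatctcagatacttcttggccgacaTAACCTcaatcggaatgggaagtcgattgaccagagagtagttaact
alphaTub84B chr3R:7089800-7089900: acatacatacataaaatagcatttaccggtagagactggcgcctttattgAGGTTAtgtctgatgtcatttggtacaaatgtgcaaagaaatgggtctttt
Bicra chr3R:29074239-29074339: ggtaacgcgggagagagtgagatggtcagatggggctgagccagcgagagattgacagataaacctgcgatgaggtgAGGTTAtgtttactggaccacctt
muc chr2L:7424667-7424767: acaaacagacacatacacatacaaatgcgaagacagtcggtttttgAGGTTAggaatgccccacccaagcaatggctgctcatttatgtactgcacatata
Paics chrX:12755922-12756022: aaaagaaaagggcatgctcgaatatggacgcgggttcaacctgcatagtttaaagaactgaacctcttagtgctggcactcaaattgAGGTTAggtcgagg

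The windows of the strongest distal peaks with the Max-type E-box are shown for comparison, since that is the site known for the protein family. Capitals mark CACGTG. One further window lay in an untranslated region and is not shown.
Rbfox1 chr3L:10519079-10519179: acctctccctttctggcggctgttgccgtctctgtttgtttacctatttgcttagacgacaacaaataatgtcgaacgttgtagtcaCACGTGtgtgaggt
crp chr2L:16269568-16269668: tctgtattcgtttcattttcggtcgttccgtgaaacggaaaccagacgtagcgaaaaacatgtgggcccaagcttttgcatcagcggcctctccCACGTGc
JIL-1 chr3L:11085937-11086037: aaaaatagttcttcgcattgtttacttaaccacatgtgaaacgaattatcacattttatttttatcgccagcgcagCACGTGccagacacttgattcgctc

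The windows of strong distal peaks with the 6-mer of GAGA factor, a protein known from developmental enhancers and Polycomb response elements, are shown too. They reach 50 bp on each side of the summit and so leave out the flanks, where its copies were more frequent. Capitals mark GAGAGA or TCTCTC, and overlapping copies run together. The Bicra and Reg-2 windows carried both this 6-mer and AGGTTA, and the Raf window did not hold AGGTTA.
Bicra chr3R:29074239-29074339: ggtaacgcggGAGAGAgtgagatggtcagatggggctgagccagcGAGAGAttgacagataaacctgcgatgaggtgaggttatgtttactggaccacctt
Reg-2 chr3L:616531-616631: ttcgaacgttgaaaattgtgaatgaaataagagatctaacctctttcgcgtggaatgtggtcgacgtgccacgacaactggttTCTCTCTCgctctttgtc
Raf chrX:2297644-2297744: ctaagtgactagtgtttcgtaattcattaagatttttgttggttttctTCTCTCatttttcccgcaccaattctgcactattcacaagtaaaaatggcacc

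Distal reproducible summits lay mainly in introns and between genes, in shares not different past the threshold from those of distal weak summits, and coding exons held few of them. Introns of protein-coding genes held 189 of 319, or 59.2% (95% Wilson interval 53.8 to 64.5%), against 54.8% of distal weak summits (odds ratio 1.20, adjusted p = 0.248, two-sided Fisher's exact test over 6 classes). Intergenic sequence held 98, or 30.7% (25.9 to 36.0%), against 29.2% (odds ratio 1.08, adjusted p = 0.690, Fisher's exact test). Neither difference passed the threshold of 0.05. With the 30000 peaks of replicate 3 in place of the pooled list, that is without replicate 4, the intron share was 60.1% against 53.3% and passed (odds ratio 1.32, adjusted p = 0.0374, Fisher's exact test).

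Coding exons held 3 distal reproducible summits, 0.940% (0.320 to 2.73%), against 8.91% of distal weak summits (odds ratio 0.0970, adjusted p = 1.20e-08, Fisher's exact test). Of the remainder, 17 lay in other exons, which carry no coding or UTR annotation, 9 in 3' UTRs and 3 in 5' UTRs, and none of these classes passed the threshold. Mid-range summits were in introns in 70.7% of cases, intergenic in 17.6% and in coding exons in 1.47%. The low share in coding exons is thus not particular to distal peaks among the reproducible ones. Peaks at 1 locus are not independent of each other, so these p-values and those below are too small.

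Intronic summits lay more often in a first intron than those of distal weak peaks, a comparison chosen after the values were seen. The first intron of a transcript held 124 of the 189 intronic summits, or 65.6% (58.6 to 72.0%), against 54.1% (odds ratio 1.62, unadjusted p = 0.00181, Fisher's exact test). With a limit of 1000 bp, which adds peaks nearer to a start, the shares were 72.2% and 58.5%, and with 5000 bp 57.9% and 46.9%. The part of distance to the start in this difference was not tested. The shortest annotated intron over each intronic summit, whether first or later, was of similar size in both sets. Its median was 12037 bp for distal reproducible and 12862 bp for distal weak summits. Of intronic summits, 145 lay downstream and 44 upstream of the nearest protein-coding start. Intergenic summits were split more evenly, with 52 downstream and 46 upstream.

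The median distance to the nearest protein-coding start was 5200 bp, with a range from 2010 to 86589 bp. It was 5029 bp for intronic and 5819 bp for intergenic summits. Within 5 kb of a start lay 154 summits, 93 lay at 5 to 10 kb, 60 at 10 to 20 kb and 12 farther away. These 12 made up 3.76% of distal reproducible summits, while 9.20% of distal weak summits were that far. The signal did not rise or fall steadily over these bins, with medians of 152, 160, 137 and 161.

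The farthest summit, at 86589 bp, lay in an intron of hth, which encodes the homeodomain cofactor of Hox proteins, and had a pooled signal of 170, with 93.0 in replicate 3 and 76.3 in replicate 4. Its nearest start belonged to Cyp12e1, as did that of the next, an intergenic summit at 47780 bp with a signal of 267. The others of the 5 farthest lay near corto at 32904 bp with 188, in an intron of pum at 30876 bp with 119, and near Pli at 30397 bp with 153. Corto is a cofactor of Polycomb and Trithorax proteins, and Pumilio, from pum, is a translational repressor. All 5 were on arm 3R.

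At the edge of the rule, the 4 nearest distal summits were those at CG12290 (2010 bp, signal 167), siz (2011 bp, 204), CG9171 (2014 bp, 113) and Mapmodulin (2020 bp, 181). The 4 nearest summits on the other side of the limit were at CHES-1-like (1970 bp, 182), muc (282), CG13786 (1945 bp, 217) and cno (1930 bp, 364). The signals on the 2 sides of the limit overlapped.

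**Figure D1:**
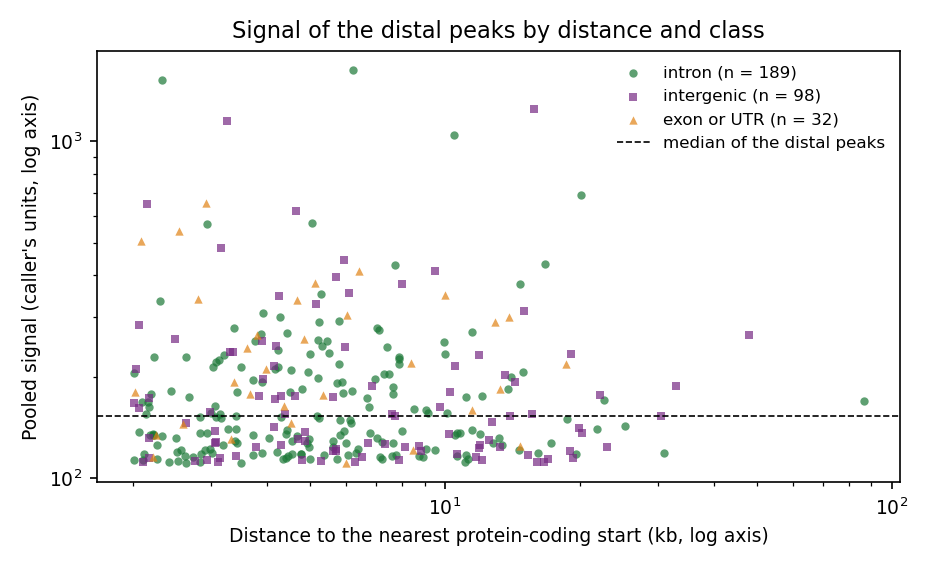
Signal of each of the 319 distal reproducible peaks (y axis, caller's units, log scale) against its distance to the nearest protein-coding start (x axis, kb, log scale), by annotation class. Circles are 189 intronic, squares 98 intergenic and triangles 32 exonic or UTR summits, and the dashed line is the median of 153; strong peaks occur from just over 2 kb to about 20 kb.

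The distance rule used protein-coding starts only, and some distal summits lay at the start of a noncoding transcript. Such a start was within 500 bp of 30 summits, or 9.40%, against 502 or 4.08% of distal weak summits (odds ratio 2.44, unadjusted p = 4.67e-05, Fisher's exact test, chosen after the values were seen). Of the 30 genes nearest these summits, counted once per summit, 23 were noncoding RNA genes, 4 tRNA, 2 snRNA and 1 snoRNA genes. The examples that follow were also chosen after their values were seen. The strongest was 22 bp from the start of lncRNA:CR31840, with 658 in the pooled list, 373 in replicate 3 and 276 in replicate 4. A summit with a signal of 193 lay 10 bp from the start of snRNA:U4:39B and another, with 153, lay 25 bp from snRNA:U1:95Ca; both encode RNAs of the spliceosome. The summit 35 bp from the start of lncRNA:Hsromega, the stress-inducible nuclear RNA gene, had a signal of 145.

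In signal, a value the authors gave each peak in units of the caller, distal peaks were somewhat lower than the rest of the reproducible list. Their signal ran from 111 to 1624 with a median of 153 and quartiles of 123 and 216. The median was 164 for peaks within 500 bp of a start and 171 for mid-range peaks. A signal above 163, the median of all reproducible peaks, was found for 139 distal peaks, 43.6% (38.2 to 49.1%), against 51.2% of the other reproducible peaks (odds ratio 0.735, adjusted p = 0.0380, Fisher's exact test over 8 comparisons of signal and support). With a limit of 5000 bp the odds ratio was 0.757 and did not pass (p = 0.103, Fisher's exact test).

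The difference was larger at the top of the list. Of the 200 strongest reproducible peaks 13 were distal, so that 4.08% of distal peaks (2.40 to 6.85%) and 11.5% of the others were among them (odds ratio 0.328, adjusted p = 0.000150, Fisher's exact test). Of the 20 strongest 0 were distal (0 of 319 distal peaks, upper 95% Wilson limit 1.19%, against 20 of 1630 others), and this difference did not pass (adjusted p = 0.121, Fisher's exact test). Intronic peaks had a median of 148 and intergenic peaks one of 150.

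The strongest distal peak, ranked 29 in the whole list, lay in the first intron of tara, which encodes a transcriptional coregulator of the Trithorax group with roles in the cell cycle and sleep. Its signal was 1624 in the pooled list, 1006 in replicate 3 and 613 in replicate 4. A peak of nrv2, a beta subunit of the sodium pump, followed with 1517, 924 and 596 in the same order, 2331 bp from the nearest start. An intergenic peak whose nearest start, 15840 bp away, belongs to the forkhead factor gene CHES-1-like had 1251, 672 and 586. These 3 stood high in both replicates, at ranks of 25 to 62 in their lists.

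The intergenic peak near alphaTub84B, the alpha-tubulin gene expressed in most cells, had 1146 in the pooled list, 606 in replicate 3 and 582 in replicate 4. A first-intron peak of Bicra, whose product belongs to a chromatin remodelling complex of the SWI/SNF family, had 1043, 651 and 397. In sbb, the gene of the nuclear corepressor Scribbler (Brakeless), an intronic summit 20107 bp from the start had 694, 390 and 316. A peak near hll had 658 and one near muc, which encodes a subunit of pyruvate dehydrogenase, had 652. The muc line was unusual in that its partners were low for its rank, with 157 in replicate 3 and 149 in replicate 4, and its interval is shared with the reproducible line near muc just inside the limit.

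The other 12 of the 20 strongest had signals from 394 to 620. They included intronic peaks of rdx, whose product targets the Hedgehog effector Ci for degradation, with 574, of RluA-2, a pseudouridine synthase gene, with 567, of the Mediator subunit gene skd with 432 and of the helix-loop-helix factor gene crp with 429. Between genes or in noncoding exons lay both peaks near Paics, a gene of purine synthesis, with 620 and 412, a second tara peak with 482, one near the ferritin gene Fer2LCH with 445, one near CG6163 with 413 and one near the elongation factor gene eEF1gamma with 394. A UTR peak of nocte had 541 and one of Teh1, a sodium channel accessory subunit gene, had 507. In all, 8 of the 20 were intronic and 8 intergenic.

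Most distal peaks had a counterpart in each replicate list. A partner with 50% reciprocal overlap was found in both lists for 260 of 319, or 81.5% (76.9 to 85.4%), against 84.8% of the other reproducible peaks (odds ratio 0.791, adjusted p = 0.190, Fisher's exact test). The replicate 3 list held a partner for 281 distal peaks (88.1%) and the replicate 4 list for 266 (83.4%). A single shared base in both lists sufficed for 317. Among distal weak peaks 34.4% had a partner in both lists, a contrast that the authors' selection on replicate ranks fixes and that is given as background only.

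A stricter view separated the groups. When each replicate list was cut to its strongest peaks, as many as the reproducible list holds, a partner in both was found for 139 distal peaks, 43.6% (38.2 to 49.1%), against 54.3% of the others (odds ratio 0.650, adjusted p = 0.00189, Fisher's exact test). Distal peaks also had the lower signal, and its part in this difference was not tested. In the 974 strongest reproducible peaks the odds ratio was 0.707 and did not pass (p = 0.0853, Fisher's exact test).

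Interval width went with the missing partners. The 59 distal lines without a partner in both lists had a median width of 149 bp, and the 260 with one had 400 bp. Of the 59, 58 were among the 108 distal lines narrower than 400 bp, and 57 shared at least 1 base with a peak in both lists. The other 50 narrow lines had a partner in both lists, and the part of width in the missing partners was not tested.

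Across the 260 matched distal peaks the replicate signals had a Spearman correlation of 0.509 and a Pearson correlation of log2 signal of 0.783, given as a description, since the peaks were chosen on pooled signal and share 2 libraries. Without the tenth of peaks with the highest pooled signal the values were 0.328 and 0.450 (234 peaks). In all 1382 other matched reproducible peaks the Spearman and Pearson values were 0.609 and 0.822. After the same removal of the peaks with the highest pooled signal they were 0.505 and 0.717 (1243 peaks). Signals of the partners ran from 35.3 to 1006 with a median of 81.4 in replicate 3 and from 18.4 to 613 with a median of 65.9 in replicate 4.

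**Figure D2:**
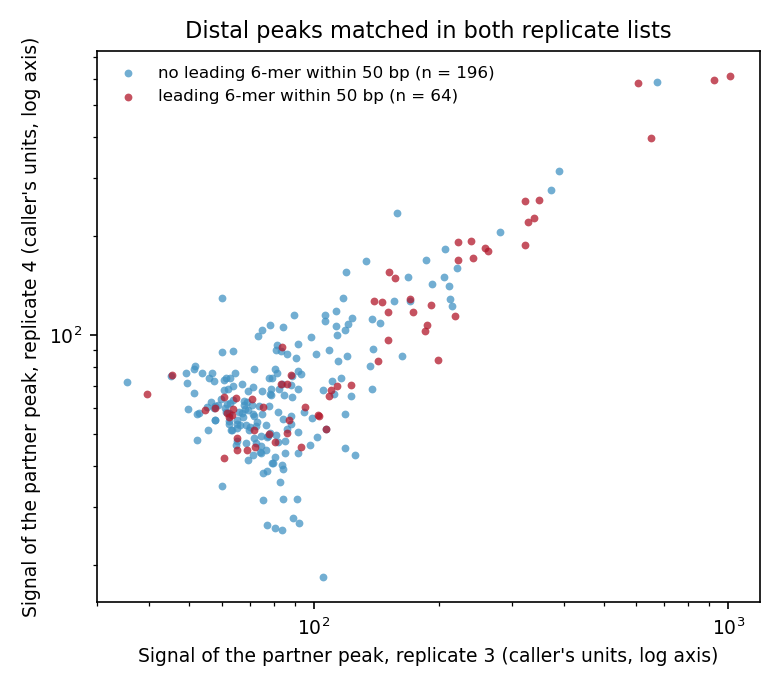
Signal of the partner peak in replicate 4 (y axis) against replicate 3 (x axis), both in the caller's units on log scales, for the 260 distal peaks matched in both lists. Red points are the 64 peaks with the leading 6-mer within 50 bp of the summit and blue points the 196 without it; the points with the highest signal are high in both replicates, and the points around the medians of 81.4 and 65.9 scatter widely.

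The 6-mer AGGTTA set distal reproducible summits apart from distal weak ones. It lay within 50 bp of 76 summits, 23.8% (19.5 to 28.8%), against 3.67% of distal weak summits (odds ratio 8.21, adjusted p = 5.78e-36, Fisher's exact test over 10 motifs). This 6-mer was already known to lead among all reproducible peaks, of which these are part, so the distal share is no independent evidence. Among reproducible peaks the share was 15.4% within 500 bp of a start and 32.6% in mid-range peaks, so the distal share stood between them. Against all other reproducible peaks, with 19.0%, the difference did not pass (odds ratio 1.34, adjusted p = 0.109, Fisher's exact test).

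The 6-mer was concentrated at the summit and in the strong peaks. Within 50 bp of the summits it occurred 86 times, with 44 copies in the 50 bases before and 42 in the 50 bases from the summit on. Each of the other bins of 50 bp out to 250 bp held 0 to 9 further copies of it. In 44 of the 76 peaks its centre was within 20 bp of the summit, and 5 peaks held more than 1 copy. The 80 strongest distal peaks carried it in 38 cases, 47.5% (36.9 to 58.3%). The next 80, the 80 after those and the 79 weakest carried it in 17.5%, 11.2% and 19.0%. Of the 20 strongest distal peaks 15 had it. The exceptions were the peaks near CHES-1-like, hll and eEF1gamma, the strongest sbb peak and the upstream tara peak.

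The median signal was 212 with the 6-mer and 143 without it. Intronic peaks carried it in 21.7% and intergenic peaks in 22.4% of cases. Read in the direction AGGTTA, the base before it was G in 59.3% of the 86 copies and the one before that T in 73.3%. Of the bases after it, the second was G in 64.0% and the third T in 64.0%, a pattern visible in the alphaTub84B and Bicra windows above.

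The E-box CACGTG was rare at distal summits. It lay within 50 bp of 7, or 2.19% (1.07 to 4.46%), against 2.82% of the other reproducible (odds ratio 0.773, adjusted p = 0.996, Fisher's exact test) and 1.57% of distal weak summits (adjusted p = 0.596, Fisher's exact test). Neither difference passed the threshold. Under the alternative settings the odds ratio against other reproducible peaks ranged from 0 to 1.05, and none passed. It was lowest with a window of 25 bp, with the E-box at 0 of 319 distal and 24 of 1630 other summits (adjusted p = 0.0584, Fisher's exact test). Of the 7 peaks, 6 were intronic, in Rbfox1 with a signal of 224, crp with 204, JIL-1 with 192, Pdp1 with 123, CG9171 with 113 and beat-Ib with 111. The seventh lay in the 3' UTR of CG2186 with 243, the highest of them, and was the only one that also had AGGTTA. Pdp1 encodes a clock and growth factor of the basic leucine zipper class, and JIL-1 a histone H3 kinase.

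The promoter sites CGATAG and CACACT and the E-box CAGCTG were less common at distal than at other reproducible summits. Most of the latter are at promoters. CGATAG, a core shared by the factors DREF and BEAF-32, lay at 3.45% of distal and 10.8% of other summits (odds ratio 0.295, adjusted p = 9.99e-05, Fisher's exact test). The share was 13.1% within 500 bp of a start, 2.05% in mid-range peaks and 2.10% at distal weak peaks. CACACT, part of the core promoter element Motif 1, lay at 5.02% and 11.4% (odds ratio 0.410, adjusted p = 0.000979, Fisher's exact test), and CAGCTG, an E-box of other helix-loop-helix dimers, at 2.82% and 8.40% (odds ratio 0.316, adjusted p = 0.000979, Fisher's exact test). In mid-range peaks CACACT was at 10.6%, near its share of 11.6% within 500 bp of a start. CAGCTG was at 4.11% in mid-range peaks and 9.54% within 500 bp. At distal weak summits CACACT was at 5.95% (adjusted p = 0.770) and CAGCTG at 4.88% (adjusted p = 0.281, both Fisher's exact tests). Neither difference between distal reproducible and distal weak summits passed, nor did that for CGATAG (adjusted p = 0.281, Fisher's exact test).

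TGCATA, part of the site of the insulator protein Su(Hw), went the other way, with 34 summits or 10.7% against 5.03% (odds ratio 2.25, adjusted p = 0.000979, Fisher's exact test). At mid-range summits it was 7.62%. At distal weak summits it was 6.84%, and that difference did not pass (adjusted p = 0.0670, Fisher's exact test). Without replicate 3, with distal and other peaks both taken from the strongest of replicate 4, the comparisons did not pass for TGCATA (adjusted p = 0.0595) or for CACACT (adjusted p = 0.276, both Fisher's exact tests). The others did not pass, with GAGAGA at 5.33% of distal summits, CAGGTA of the early activator Zelda at 1.88%, GCCATT of the Polycomb recruiter Pho at 5.96% and AGATAA of the GATA factors at 6.27%. GAGAGA was at 8.63% against 5.13% without replicate 4, in the opposite direction to the pooled list and past the threshold (odds ratio 1.74, adjusted p = 0.0452, Fisher's exact test).

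**Figure D3:**
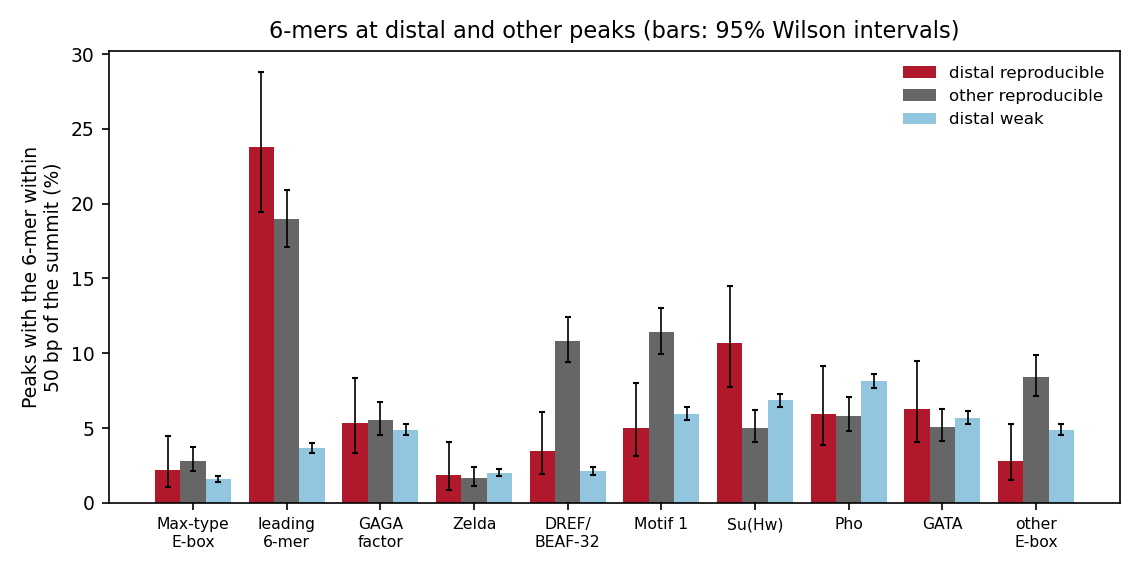
Share of peaks with each of 10 motifs within 50 bp of the summit (y axis, percent; bars start at 0), in distal reproducible (red), other reproducible (grey) and distal weak peaks (blue), with 95% Wilson intervals. The leading 6-mer stands at 23.8%, 19.0% and 3.67%, and the DREF/BEAF-32 core at 3.45%, 10.8% and 2.10%.

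Copies of GAGAGA lay beside the distal summits rather than on them, a pattern noticed after the values were seen and given with no test. The bins of 50 bp at the summit held 14 and 13 copies, and those at 101 to 150 bp before and 100 to 149 bp after it held 44 and 46. At 51 to 150 bp from the summit 18.2% of distal peaks had a copy (14.3 to 22.8%), against 13.7% of the other reproducible (12.2 to 15.5%) and 9.32% of the distal weak peaks (8.82 to 9.85%). Of the 224 other reproducible peaks with a copy, 150 were among the 1289 within 500 bp of a start (11.6%). The rest were among the 341 mid-range peaks, whose share was above the distal one, so the trait is not particular to distal peaks. The flanks span more bases than the 101 at the summit. For AGGTTA the same flanks gave 7.21%, 11.7% and 5.24%.

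**Figure D4:**
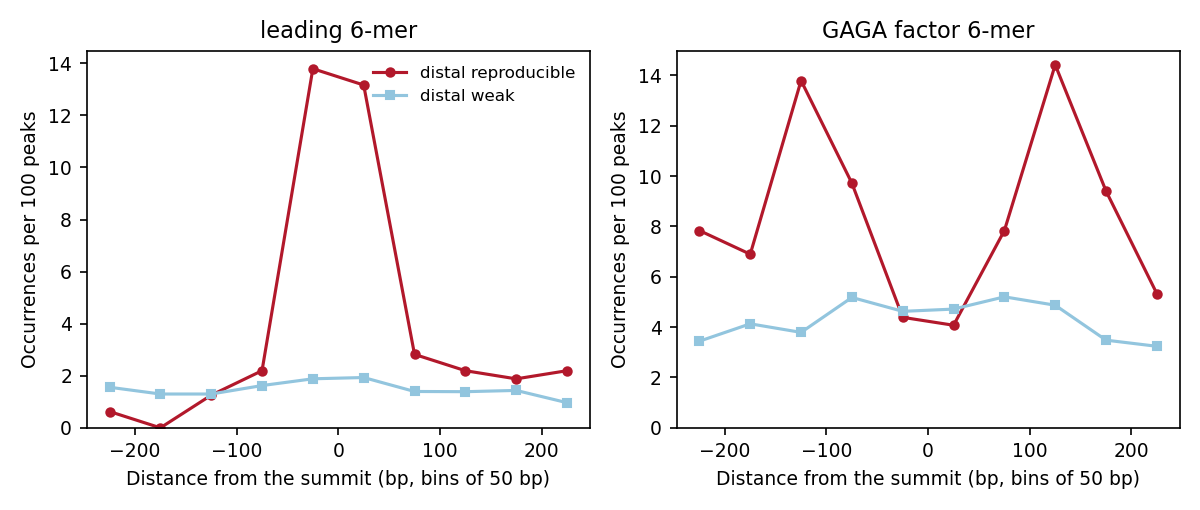
Occurrences per 100 peaks (y axis) of the leading 6-mer and of the GAGA factor 6-mer in bins of 50 bp by distance from the summit (x axis), in 319 distal reproducible (red) and 12318 distal weak peaks (blue). The leading 6-mer reaches 13.8 at the summit in the distal reproducible peaks, while the GAGA factor 6-mer is near 4 at the summit and reaches 14.4 to its side.

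Over all 2080 6-mers with strands merged, 16 were more common at distal than at other reproducible summits, 0.769% of those tested, and 12 were less common, 0.577% (adjusted p under 0.05, Fisher's exact tests). Of the higher ones CAAATA and AATATT shared the lowest adjusted p. CAAATA was at 21.3% of distal against 10.4% of other summits (odds ratio 2.34, adjusted p = 0.000291, Fisher's exact test). The other 9 of the first 10 were AATATT at 17.2% of distal summits, AGCAAA at 18.8%, AGTATG at 7.52%, AAAGTA at 14.4%, GCATAC at 7.52%, GCAAAC at 15.7%, ACAAAT at 19.1%, AAATAT at 27.3% and GACAAA at 11.3%. Most of these are rich in A and T. Mean GC content within 50 bp of the summit was 41.2% ± 9.07 (SD over 319 peaks) against 42.9% ± 9.44 for the others, and its part in these calls was not tested.

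Of the lower ones ATCGAT had the lowest adjusted p, at 1.88% against 9.57% (odds ratio 0.181, adjusted p = 0.000291, Fisher's exact test). Beside CGATAG (3.45%), CACACT (5.02%) and CAGCTG (2.82%), already given, the next were TATCGA at 5.33% of distal summits, GGTCAC at 1.88%, ACACTG at 4.70%, ATATCG at 1.88%, ACTATC at 1.57% and GCACGA at 0.627%. Several are pieces of the DREF/BEAF-32 and Motif 1 sites. The number of calls depended on the list used. Against 28 in both directions here, 3 6-mers were called without replicate 3, and 0 among the 974 strongest reproducible peaks or with a limit of 5000 bp, where 114 and 133 had an unadjusted p under 0.05 by Fisher's exact test.

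Against distal weak summits 39 6-mers were more common, 1.88% of those tested, and 5 less common, 0.24%. Of the 10 with the lowest adjusted p, AGGTTA was the first and 7 share at least 4 bases in a row with it or its reverse complement. These were AACCTC at 14.1% of distal summits, ACCTCA at 13.2%, ATAACC at 13.8%, CTAACC at 35 summits, AACCTA at 32, CCTAAC at 8.78% and ACCTAA at 9.40%. The other 2 were AAATAT at 27.3% and AATATT at 17.2%. The 5 lower ones were GCATCC, at 0 distal summits (upper 95% Wilson limit 1.19%) and 468 distal weak ones, AGGATG (0.313% and 3.54%), GAGTCC (0 and 2.70%), ACTCCT (0 and 2.61%) and CTGGCC (1.88% and 6.16%). GC content was 45.0% at distal weak summits. Summits mostly on bases that the genome file marks as repeats made up 3.76% of distal and 3.87% of other reproducible peaks, and 0 distal summits lay in annotated transposons.

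Each distal peak was assigned to the protein-coding gene that holds its summit or, outside genes, to the gene with the nearest start. The 319 peaks fell to 261 genes, 1.87% of 13945, while distal weak peaks fell to 3292, or 23.6%. A summit lay inside a gene for 208 peaks and outside for 111, and 10 lay in more than 1 gene. For 155 of the 208 the host was also the gene of the nearest start. Most genes had 1 distal peak (211 genes), 38 had 2 and 12 had at least 3. Another reproducible summit lay within 2000 bp of 54 distal summits (16.9%), and the median distance to the next was 11314 bp.

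Of the genes with several peaks, tara and Hr4 had 5 each. At tara, 2 lay upstream, with signals of 482 at 3160 bp and 116 at 2217 bp, and 3 lay within the gene, with 279, 1624 and 156. Only the strongest and the last carried AGGTTA. Hr4 encodes a nuclear receptor of the ecdysone cascade, and its peaks were even in size, with 149, 234, 140, 171 and 131 from the 5' to the 3' end. The last lay in its 3' UTR, nearest to the start of PIG-K.

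Peaks numbered 4 at each of sbb, crp and chinmo. In sbb they ran through the first 20107 bp of the gene, with 163, 123, 150 and 694. In crp, which encodes the fly AP-4, they had 152, 429, 121 and 204, and the last held CACGTG. All 4 chinmo peaks lay upstream of the gene, which encodes a zinc finger factor of neuronal timing and stem cells, at 2491, 7731, 12520 and 16977 bp from its start. Their signals were 259, 153, 130 and 114, lower at each step away. Those at 7731 and 16977 bp had 26.5 and 25.6 in replicate 4, against 77.1 and 83.9 in replicate 3, so they rest mainly on replicate 3.

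The remaining genes had 3 each. In Eip75B, another nuclear receptor gene of the ecdysone cascade, the signals were 195, 182 and 272, all at narrow intervals of which 2 had no partner in either list by reciprocal overlap, though all shared bases with peaks in both lists. In CHES-1-like they were 125 and 134 in introns and 1251 beyond the gene. In bun, a TSC-22 family gene, they were 233, 112 and 156, and at Tis11, whose product speeds decay of messenger RNA, 114, 117 and 177. Mi-2, the chromatin remodeller gene of the NuRD complex, and Su(Tpl), the gene of the elongation factor Ell, overlap and share the same 3 summits, with 111, 148 and 159. CG4004 had 266, 380 and 304, all in exons of noncoding RNA genes beyond its end. By reciprocal overlap, no partner in either list was found for the Hr4 peaks of 149 and 140, the tara peak of 279 or the CHES-1-like peak of 134. The same held for the Mi-2 peak of 148 and the Tis11 peak of 177, and the latter shared no base with a replicate 3 peak.

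**Figure D5:**
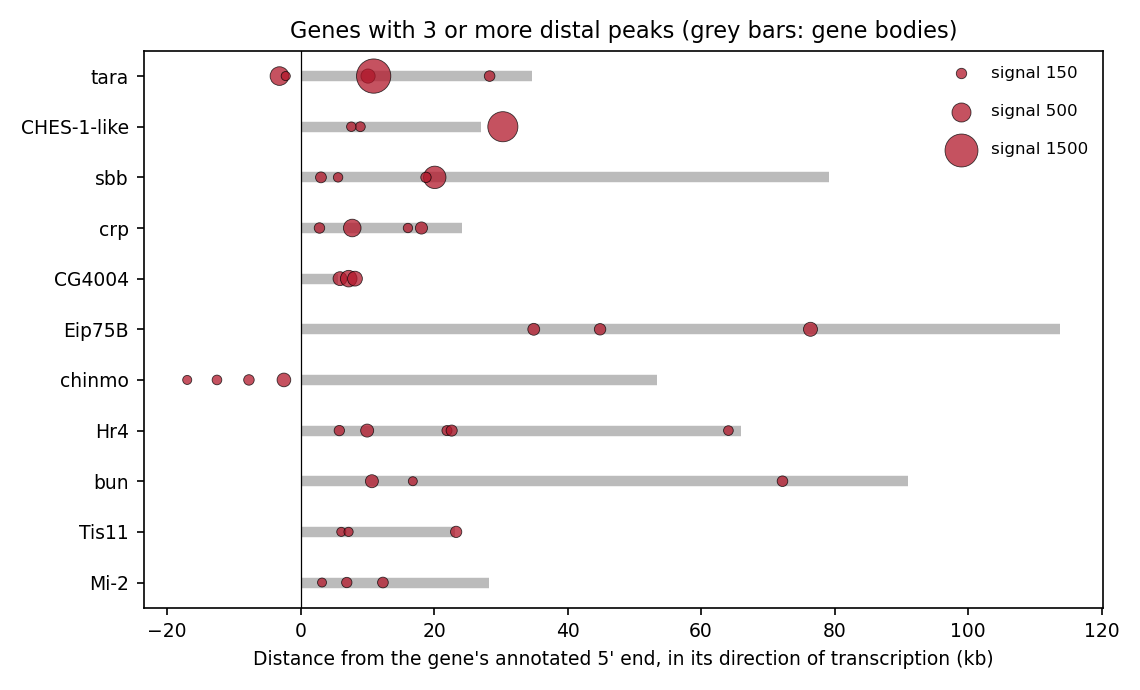
Position of the distal peaks (points; area in proportion to signal) along the genes with 3 or more, in kb from the annotated 5' end in the direction of transcription (x axis); grey bars are gene bodies, and Su(Tpl), which shares the summits of Mi-2, is not drawn. The chinmo peaks all lie before the gene, and the strongest peak, of signal 1624, lies within tara.

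Developmental regulators were among the genes with distal peaks. Lists of genes, chosen with earlier results of these data known, are described by counts with no test, beside the 1.87% of all protein-coding genes with a distal reproducible peak and the 23.6% with a distal weak one. Of 28 segmentation genes 6 had a distal reproducible peak, 21.4%, and 23 a distal weak one, 82.1%. The strongest were slp2 (signal 175), cad (173), hkb (142) and inv (137), of which cad and inv encode homeodomain, slp2 forkhead and hkb zinc finger factors. Of 11 Hox genes and cofactors 2 had one, lab with 294 and hth with 170, or 18.2%, and 10 had a distal weak peak, 90.9%. The lab peak had 188 in replicate 3 and 108 in replicate 4 and carried AGGTTA, whereas the hth peak did not carry it.

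Of 129 other developmental transcription factor genes 19 had a distal peak, 14.7%, and 107 a distal weak one, 82.9%. The strongest were crp with 429, the insulin-responsive forkhead gene foxo with 328, the LIM homeodomain gene Lim1 with 270 and chinmo with 259. Of 33 hormone and ecdysone genes 5 had one, 15.2%, and 26 a distal weak one, 78.8%. The 5 genes held 13 peaks, 4.08% of distal reproducible peaks, and the whole list held 2.13% of distal weak peaks. They included the nuclear receptor genes ftz-f1 with 376, Eip75B with 272, Hr4 with 234 and Hr3 with 225. Of 75 signalling genes 10 had one, 13.3%, and 54 a distal weak one, 72.0%. They included the insulin receptor gene InR with 234, the EGF receptor ligand gene vn with 174, the JAK/STAT inhibitor gene Socs36E with 153 and the Wnt gene wg with 153. By reciprocal overlap the slp2 and InR peaks had no partner in either replicate list. The vn and Lim1 peaks had none in replicate 4, and the Hr4 peak of 234 none in replicate 3. All of these shared bases with peaks in both lists. All 5 lists stood above the share over all genes for both kinds of peak.

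Together the segmentation, Hox, other transcription factor, hormone and signalling lists held 61 distal reproducible peaks, 19.1%, against 14.5% of distal weak peaks, with a median signal of 145 against 153 for all distal peaks. By list the distal reproducible and distal weak shares were 1.88% and 0.804% for segmentation, and 8.78% and 6.35% for other transcription factors. The Hox list, with 0.627% and 1.10%, and the signalling list, with 3.76% and 4.33%, went the other way. The wg peak, 14001 bp upstream of the nearest start, had both AGGTTA and GAGAGA. Gene length was not taken into account in these shares.

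Chromatin genes had a distal peak at 7 of 50, and 25 had a distal weak one. The 7 genes held 11 peaks, 3.45% of distal reproducible peaks, and the whole list held 0.909% of distal weak peaks. They included osa, a SWI/SNF subunit gene, with 301, the Polycomb group gene Psc with 247, the Trithorax group gene trx with 213 and JIL-1 with 192. Of 56 axon guidance and adhesion genes 6 had one, 10.7%, and 49 a distal weak one, with Fas2 at 275, the netrin receptor gene fra at 245, caps at 197 and Ten-a at 126. This list held 1.88% of distal reproducible and 3.34% of distal weak peaks, in the opposite direction to the chromatin list. Neuronal channel and synapse genes had one at 3 of 41, 7.32%, and a distal weak one at 29, with the phosphodiesterase gene dnc at 308, the sodium channel gene para at 184 and the innexin gene Inx2 at 174. By reciprocal overlap the Psc and Inx2 peaks had no partner in either replicate list, the trx peak none in replicate 3 and the caps peak none in replicate 4.

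Cytoskeleton and muscle genes had one at 6 of 51, 11.8%, and a distal weak one at 28, led by alphaTub84B at 1146, the troponin I gene wupA at 291, the polarity gene baz at 218 and Zasp52 at 202. Of 33 circadian, sugar response and Max network genes 4 had one, 12.1%, and 15 a distal weak one. These were foxo at 328, the aldolase gene Ald1 at 125, Pdp1 at 123 and Myc at 117, and apart from foxo they stood below the median of the distal peaks. Translation genes had one at 2 of 32, 6.25%, and a distal weak one at 13. The 2 were eEF1gamma at 394 and pum at 127. Of 88 ribosomal protein genes 0 had a distal peak, as did 0 of 179 chemoreceptor and 0 of 95 cuticle genes, which is near the share of 1.87% over all genes and is no result about these lists. A distal weak peak was found at 10.2%, 16.8% and 9.47% of them.

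The arms held 65 distal peaks on 2L, 57 on 2R, 65 on 3L, 76 on 3R, 53 on X and 3 on chromosome 4. As shares these were 20.4%, 17.9%, 20.4%, 23.8%, 16.6% and 0.940%, and those of distal weak peaks in the same order were 19.4%, 18.3%, 23.5%, 23.9%, 14.6% and 0.187%. The shares were not tested.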

How the data were processed

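Peaks from 2 libraries of Bigmax-GFP embryo chromatin were analysed. The authors aligned reads to dm6 and made relaxed peak calls per replicate and over both together, with 1 control alignment, per the file notes they deposited. Pooled calls were then thresholded by IDR. The control was not analysed here, and no source used here names the peak caller. The authors' signal per peak, in the caller's units, ranks the peaks. The deposited −log10 q-value takes 1 value over the whole reproducible list and was not used to rank. Depth is unknown.

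Starts, exons and genes came from Ensembl release 115 gene models on the 6 main arms (13945 protein-coding genes), and sequence from the RefSeq copy of the same assembly. A summit took its class from UTRs first, then coding exons, other exons, introns and intergenic sequence. Computation used Python 3.11.15, numpy 2.4.6, pandas 2.3.3, scipy 1.17.1 and matplotlib 3.10.9. Shares were compared by two-sided Fisher's exact tests with Benjamini-Hochberg adjustment within each family, at a threshold of 0.05, and carry 95% Wilson intervals. Motifs were searched on both strands within 50 bp of the summit. The scripts were tested on simulated data.

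Genes were named by rule: those of the 20 strongest distal peaks, of genes with at least 3, up to 4 leading members of each of 14 gene lists, the 4 peaks on each side of the limit, the 5 farthest and all with CACGTG. Members, lists and motifs were chosen with earlier results of these data known. Sequences shown are the strongest peaks with each motif outside arm 2R and outside UTRs. Alternatives were other distance limits and start sets, the 974 strongest reproducible peaks, each replicate list alone, merged regions, other windows, backgrounds and overlap rules.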

Additional observations from a re-analysis of the deposited data

How the results depend on the processing

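The results were recomputed with limits of 1000 and 5000 bp, other start sets, the 974 strongest peaks, merged regions, each replicate list alone, other windows, backgrounds and overlap rules, and, chosen after seeing the data, only peaks with partners in both replicate lists. The alternatives for first introns, noncoding starts, the strongest peaks of both replicates, coding exons, AGGTTA against distal weak peaks and the other 7 of the 10 motifs, those besides the leading 6-mer, the Max-type E-box and the GAGA factor 6-mer, were also chosen after seeing the data. No cause of the changes below was tested.

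The distal share of the list was 23.7% with a limit of 1000 bp, 8.47% with 5000 bp, 13.5% with starts of all transcripts, 25.1% with gene starts only and 14.3% in the 974 strongest. The odds ratio of the intron share passed at 1.52 with 1000 bp, 1.46 with all starts and 1.35 with gene starts, and ranged from 1.09 to 1.32 with 1 replicate left out. It was 0.996 in the 974 strongest and 0.981 against weak peaks found in both replicate lists, and passed in neither. The odds ratio of above-median signal fell short with 5000 bp, at 0.757. Support in both replicates passed at 0.633 in the 974 strongest and 0.650 among as many strongest peaks of each replicate, and a partner among the strongest of both no longer passed in the 974 strongest, at 0.707. Of the 974 strongest, 66.2% of distal and 75.6% of other peaks had a partner in both lists by reciprocal overlap. These shares were 81.5% and 84.8% in the whole list, so stronger peaks had such a partner less often. AGGTTA against other reproducible peaks passed at 1.52 with 1000 bp, 1.65 with 5000 bp, 1.47 with all starts and 1.72 against promoter peaks only. It did not pass in the other settings, with 1.07 for a window of 100 bp and 1.10 in the 974 strongest. The GAGAGA odds ratio ranged from 1.26 to 1.74 with 1 replicate left out and was above 1 in both, past the threshold without replicate 4, against 0.963 in the report's list.

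The count of 6-mers that differed from other reproducible peaks, 28 in the report, was 48 with 1000 bp, 0 with 5000 bp, 6 with all starts, 0 in the 974 strongest, 4 with a window of 25 bp, 44 against promoter peaks, 11 with both partners required and 3 to 17 with 1 replicate left out. Against distal weak peaks, 44 in the report, it was 132, 15 and 105 with 1000 bp, 5000 bp and gene starts, 14 in the 974 strongest, 22 and 108 with windows of 25 and 100 bp, and 26 against weak peaks found in both replicate lists, this last also chosen after seeing the data. Under every alternative run, 6 results kept their direction and side of the threshold, with odds ratios of 1.37 to 2.22 for first introns, 2.06 to 2.85 for noncoding starts, 0 to 0.225 for coding exons, 0.202 to 0.375 for CGATAG, 0.202 to 0.456 for CAGCTG, and 5.42 to 12.2 for AGGTTA against distal weak peaks. TGCATA (1.67 to 2.63) and CACACT (0.345 to 0.721) each lost the threshold under 3 alternatives. Unknown depth leaves counting of peaks as the only error given.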

Other observations

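A run of 5 distal peaks lay within 1 stretch of X from 12749995 to 12756170 (dm6), chosen here after the values were seen. From the lower to the higher coordinate their signals were 266, 380, 304, 412 and 620, all above the median of 153 for distal peaks. The first 4 summits fell in exons of noncoding RNA genes and the last between genes. The nearest protein-coding starts were those of CG4004 for the first 3 and of Paics for the other two. For the first 3, starts of lncRNA:Vinr and lncRNA:CR44619 were 228, 439 and 496 bp away. AGGTTA lay near the summits of 266, 412 and 620 and not near the others.

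All 4 tRNA starts within 500 bp of a distal summit were between protein-coding genes. The signals were 313 at tRNA:Ile-TAT-1-2, 211 at tRNA:Ala-TGC-2-1, 123 at tRNA:Glu-TTC-1-5 and 121 at tRNA:Glu-CTC-2-3. The peak at tRNA:Glu-TTC-1-5 had 35.3 in replicate 3, the lowest partner signal in that replicate among the matched distal peaks, and 72.0 in replicate 4.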
